A study of Mus musculus with 10 samples.

Results

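Genes that package dietary fat into lipoprotein particles were followed across intestinal epithelium. They encode the apolipoproteins Apoa1, Apoa4, Apoc3, Apoc2 and Apob, the lipid transfer protein Mttp, and the triglyceride-forming enzymes Dgat1 and Dgat2. All 8 genes were on the array, through 14 probe sets that name one of them and no other gene, among 12393 genes in all. Where a gene had several, the one with the brightest average over the 10 arrays was read. The data were 10 Affymetrix mouse 430A 2.0 arrays hybridised with total RNA of cells from C57BL/6 mice, in 5 groups of 2 arrays.

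Villus enterocytes (ENT) and crypt enterocyte progenitors (Ent-Pro) both came from Atoh1-/- mice, in which loss of Atoh1 is known to deplete the secretory lineage. Secretory progenitors (Sec-Pro) of the crypt were enriched either by giving mice dibenzazepine, an inhibitor of Notch signalling (DBZ Sec-Pro), or by knockout of Rbpj (Rbpj Sec-Pro), which encodes the protein that takes the Notch signal to DNA. Lgr5+ stem cells (ISC) were sorted by green fluorescent protein from Lgr5-eGFP-Cre mice, and they were the 1 group whose label describes a sort. The other groups were crypt or villus epithelium released with EDTA. The labels name neither the Cre driver for Rbpj or Atoh1, nor the age of the mice, nor whether the paired arrays of any group represent different mice. The p-values therefore reflect only the scatter among these samples, part or all of which may be technical. ENT and Ent-Pro share the Atoh1-/- genotype and differ in villus or crypt origin. In the other comparisons cell population, genotype and treatment go together and cannot be told apart.

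Enterocytes take up fatty acids and monoacylglycerol from the gut lumen and rebuild triglyceride in the endoplasmic reticulum. Mttp loads this lipid onto apolipoprotein B as the protein is made, other apolipoproteins join the particle, and coated vesicles of unusual size carry it to the Golgi before it leaves the cell as a chylomicron. The villus enterocyte is the known seat of this work.

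Values are the authors' log2 expression values, where 1 unit is a factor of 2, and the arrays' highest values lay between 14.85 and 15.18. Levels were compared within a gene and not between genes, because probe sets differ in brightness. A gene was called where limma's adjusted p (Benjamini-Hochberg over all 12393 genes) was under 0.05. Over the 5 groups together limma's F-test called all 8 genes, in data where it called 66.1% of all genes. The label of ENT was checked on enterocyte markers: the mean of 9 markers was 12.86 and 12.88 in ENT and 11.999 and 11.74 in Ent-Pro. For DBZ Sec-Pro it was 12.28 and 11.69, for Rbpj Sec-Pro 12.73 and 12.44, and for ISC 9.71 and 9.60. The stem cell arrays stood apart at the low end, and the Sec-Pro arrays lay between 11.69 and 12.73. On the Atoh1-/- arrays the mean of 7 goblet markers was 6.38 to 6.78 and that of 4 Paneth markers 7.17 to 9.38. The mean of 5 tuft cell markers was 9.40 and 8.95 in ENT and 6.09 and 5.54 in Ent-Pro. The liver is the other organ known for these genes, and the mean of 6 hepatocyte markers lay between 5.55 and 6.196 on every array, and that of 6 stroma and vessel markers between 4.89 and 5.84. Fewer cells of a type and less RNA per cell cannot be told apart in such mixed preparations.

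Apoa1, Apoc3 and Apoa4 lie next to each other in that order on chromosome 9 of GRCm38.p6, with Apoa5 as the next gene. Sequences around the annotated start are shown for Apoa1 and Apoa4, of this cluster, and for Apob, the scaffold of the particle, because each holds a match to a motif of nuclear receptors such as Hnf4a. They run 5′ to 3′ from 250 bases before the start to 50 bases past it and are from RefSeq (GRCm38.p6). All lie on the plus strand, at chr9:46228380-46228679 for Apoa1, chr9:46240594-46240893 for Apoa4 and chr12:7977427-7977726 for Apob. The Apob gene is annotated from chr12:7977629, so the start used for its window, from which motif positions are counted, lies inside the gene. Capitals mark matches on either strand to a direct repeat (GNTCA, then 2 bases of any kind, then GNTCA), to the related CAAAGNNCA and, in Apob alone of these 3, to the TATA box TATAAA.
Apoa1: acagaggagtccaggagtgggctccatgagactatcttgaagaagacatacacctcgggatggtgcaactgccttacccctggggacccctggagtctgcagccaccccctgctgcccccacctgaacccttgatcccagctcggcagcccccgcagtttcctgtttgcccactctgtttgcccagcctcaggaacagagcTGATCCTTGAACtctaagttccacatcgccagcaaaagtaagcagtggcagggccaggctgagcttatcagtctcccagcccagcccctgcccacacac
Apoa4: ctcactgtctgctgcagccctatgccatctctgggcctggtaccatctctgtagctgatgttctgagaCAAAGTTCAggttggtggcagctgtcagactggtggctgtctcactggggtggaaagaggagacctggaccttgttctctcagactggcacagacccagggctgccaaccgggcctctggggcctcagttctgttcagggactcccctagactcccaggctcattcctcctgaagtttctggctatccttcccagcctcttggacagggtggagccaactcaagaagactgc
Apob: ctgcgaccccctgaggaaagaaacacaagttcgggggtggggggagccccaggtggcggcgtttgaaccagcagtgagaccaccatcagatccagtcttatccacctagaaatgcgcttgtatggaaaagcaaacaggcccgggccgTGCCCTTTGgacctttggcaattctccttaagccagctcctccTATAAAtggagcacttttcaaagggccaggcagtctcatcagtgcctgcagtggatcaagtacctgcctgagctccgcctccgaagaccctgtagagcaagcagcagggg

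The direct repeat was found in Apoa1, beginning 49 bases before the start, and in 1.26% of all 32851 promoters of this length. The shorter motif was found in Apoa4, 182 bases before the start, and in Apob, 103 bases before it, against 6.36% of all promoters. Apob also had the TATA box, which 13.6% of promoters held. Promoters of Apoc2 and Mttp were in the same table and held none of these letters in the window. Apoc3, Dgat1 and Dgat2 had no entry. The motifs were chosen after the sequences had been seen, and a match is a description, not a binding site.

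**Figure D1:**
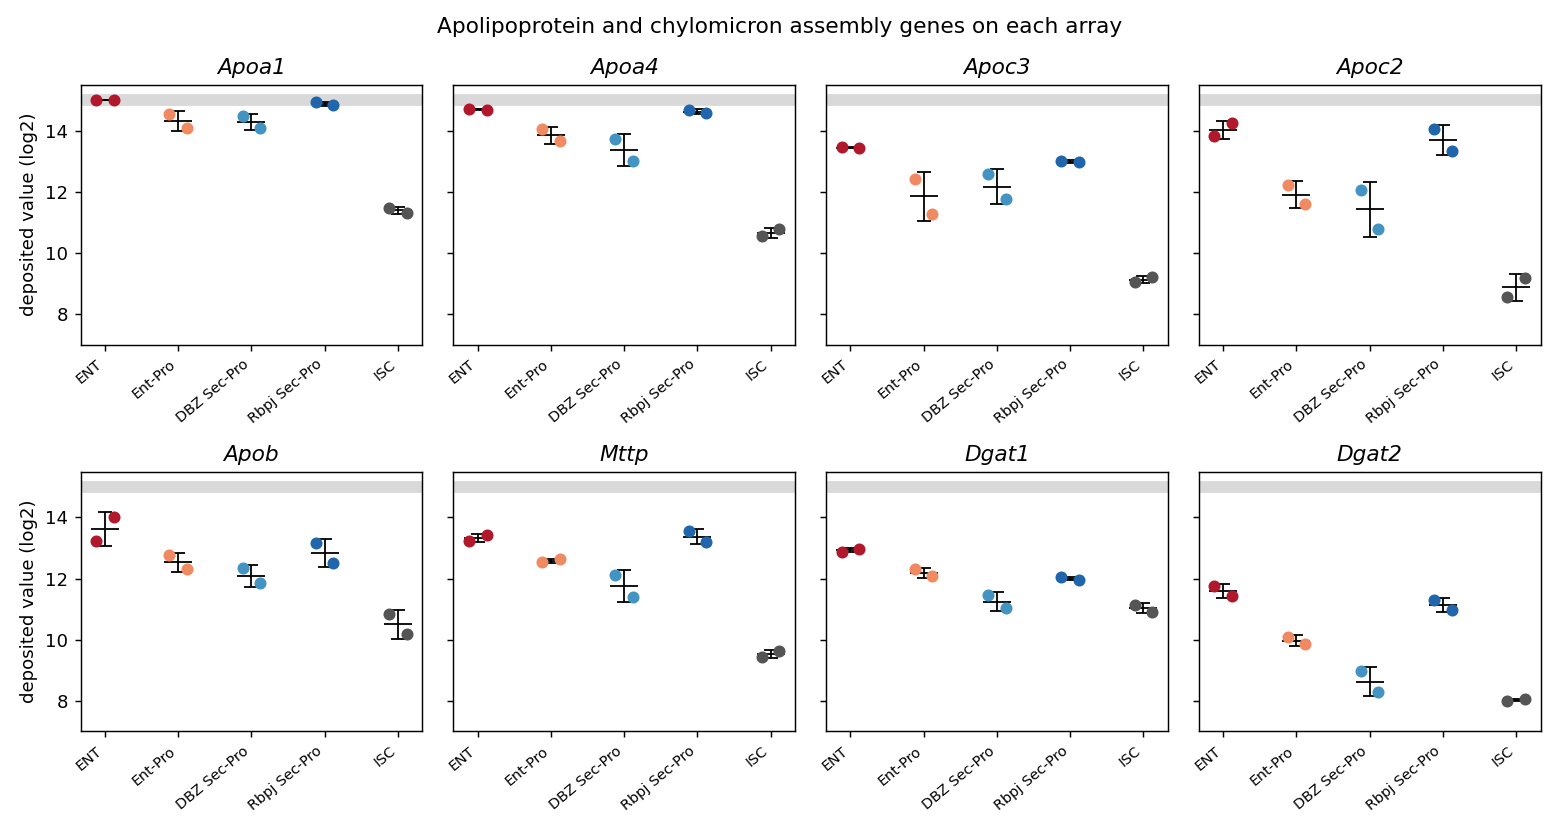
Deposited log2 value (vertical axis) of the 8 genes on each of the 10 arrays, by group from ENT on the left to ISC on the right; coloured points are arrays, black bars the group mean ± SD (n = 2), and the grey band spans the 10 arrays' highest values (14.85 to 15.18). Each gene was lowest on the ISC arrays by group mean, and Apoa1 lay in or near the band in ENT and Rbpj Sec-Pro.

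Apoa1, the main protein of high-density lipoprotein, read 15.00 and 14.99 in ENT, 14.55 and 14.07 in Ent-Pro, 14.47 and 14.09 in DBZ Sec-Pro, 14.94 and 14.84 in Rbpj Sec-Pro, and only 11.48 and 11.32 in ISC. Every array outside ISC was well above the ISC arrays, and Ent-Pro and DBZ Sec-Pro overlapped. In ENT and Rbpj Sec-Pro it was 0.11 to 0.21 below the array's highest value, so little room was left on the scale for a higher reading. Apoa4, an apolipoprotein that rodents make mostly in the small intestine, read 14.71 and 14.69 in ENT, 14.05 and 13.65 in Ent-Pro, 13.73 and 13.01 in DBZ Sec-Pro, 14.69 and 14.57 in Rbpj Sec-Pro, with 10.54 and 10.77 in ISC. With this probe set ENT and Rbpj Sec-Pro overlapped, 0.36 to 0.49 below the array's highest value, and ISC was far below all. The other Apoa4 probe set showed no overlap there, with 14.81 and 14.89 in ENT and 14.47 and 14.28 in Rbpj Sec-Pro.

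Apoc3, which slows the clearance of triglyceride-rich particles, read 13.46 and 13.43 in ENT, 12.43 and 11.29 in Ent-Pro, 12.57 and 11.76 in DBZ Sec-Pro, 13.02 and 12.96 in Rbpj Sec-Pro, with 9.04 and 9.21 in ISC. Its Ent-Pro arrays lay 1.14 apart, the widest gap in that group. Apoc2, the activator of lipoprotein lipase, read 13.81 and 14.24 in ENT, 12.21 and 11.59 in Ent-Pro, 12.06 and 10.79 in DBZ Sec-Pro, 14.05 and 13.35 in Rbpj Sec-Pro, with 8.56 and 9.18 in ISC. ENT and Rbpj Sec-Pro overlapped, as did Ent-Pro and DBZ Sec-Pro, one pair above the other.

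Apob, the scaffold of the chylomicron, read 13.23 and 14.02 in ENT, 12.76 and 12.30 in Ent-Pro, 12.35 and 11.84 in DBZ Sec-Pro, 13.16 and 12.51 in Rbpj Sec-Pro, with 10.83 and 10.17 in ISC. Its neighbouring groups lay close, and of the steps between neighbours in the order of its means, the single one that passed was that from DBZ Sec-Pro to ISC (1.59, adjusted p = 0.0071). Mttp, which carries lipid to apolipoprotein B, read 13.24 and 13.43 in ENT, 12.54 and 12.63 in Ent-Pro, 12.13 and 11.39 in DBZ Sec-Pro, 13.54 and 13.20 in Rbpj Sec-Pro, with 9.44 and 9.64 in ISC. Rbpj Sec-Pro and ENT overlapped, and Ent-Pro, DBZ Sec-Pro and ISC followed below as separate steps.

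Dgat1 and Dgat2 are enzymes of separate families that each carry out the last step of triglyceride synthesis. Dgat1 read 12.88 and 12.98 in ENT, 12.30 and 12.07 in Ent-Pro, 11.47 and 11.03 in DBZ Sec-Pro, 12.04 and 11.96 in Rbpj Sec-Pro, with 11.14 and 10.92 in ISC. DBZ Sec-Pro overlapped with ISC, and ENT stood above the rest. Dgat2 read 11.76 and 11.44 in ENT, 10.09 and 9.85 in Ent-Pro, 8.96 and 8.30 in DBZ Sec-Pro, 11.31 and 10.98 in Rbpj Sec-Pro, with 7.998 and 8.05 in ISC. No groups of Dgat2 overlapped, and DBZ Sec-Pro lay just above ISC.

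In enterocyte progenitors against stem cells all 8 genes were higher, where 12.1% of all genes were called higher. The log2 fold changes ran from 1.15 to 3.20 with a median of 2.82, against a median of -0.02 over all genes. Apoa4 was 9.17-fold higher in Ent-Pro than in ISC (log2 fold change 3.20, SE 0.23, adjusted p = 8.7e-05) and 19.2-fold by its other probe set, Mttp 8.28-fold (SE 0.23 on the log2 scale, adjusted p = 1.0e-04) and Apoc2 8.17-fold (SE 0.43, adjusted p = 0.0015). Apoa1 was 7.52-fold, Apoc3 6.66-fold and Apob 4.09-fold higher. The acyltransferases had the smallest changes, 3.85-fold for Dgat2 and 2.23-fold for Dgat1 (adjusted p = 0.0017). The count stayed at 8 whichever array was left out. Of the enterocyte markers 8 of 9 were higher in Ent-Pro, and 2 of 5 proliferation markers too. Lower in Ent-Pro were 4 of 7 stem cell, 7 of 7 goblet, 3 of 4 Paneth and 8 of 9 enteroendocrine markers. Their part in the result was not tested.

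In villus enterocytes against crypt enterocyte progenitors, both Atoh1-/-, all 8 genes were higher again, by less, where 18.5% of all genes were called higher. The median was 0.97, against 0.02 over all genes. Apoc2 was 4.37-fold higher in ENT (log2 fold change 2.13, SE 0.43, adjusted p = 0.0042), Dgat2 3.10-fold (1.63, SE 0.23, adjusted p = 0.00058) and Apoc3 3.002-fold (1.59, SE 0.35, adjusted p = 0.0065). Apob was 2.13-fold higher, and Apoa4, Mttp, Dgat1 and Apoa1 between 1.61-fold and 1.80-fold. Apoa1 in ENT was close to the top of the scale. The calls of Apoc2, Apoc3 and Dgat2 held in every alternative run. Those of the others did not: 3 of the 8 passed without Ent-Pro replicate 2, 4 without ENT replicate 2 and 5 without ENT replicate 1, with no sign turned. Of 9 enterocyte markers 7 were higher in ENT, all 5 proliferation and 5 of 7 stem cell markers measured were lower, and 3 of 5 leukocyte and all 5 tuft cell markers were higher. Their part in the result was not tested.

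Against stem cells directly, ENT was higher in all 8 genes (22.3% of all genes were called higher), from 3.74-fold for Dgat1 to 35.7-fold for Apoc2 with the probe sets used. The other Apoa4 probe set gave 48.4-fold, above Apoc2. All 9 enterocyte, 4 of 5 leukocyte and 5 of 5 tuft cell markers were higher in ENT than in ISC. All 7 goblet, 4 Paneth, 7 stem cell and 5 proliferation markers, and 8 of 9 enteroendocrine markers, were lower. Their part in the result was not tested. Of this log2 difference between ENT and ISC, Ent-Pro held 81.0% for Apoa1, 80.3% for Mttp and 79.1% for Apoa4. It held less for Apob (65.0%), Apoc3 (63.3%), Dgat1 (60.7%), Apoc2 (58.8%) and Dgat2 (54.3%). These shares are descriptions with no test, and Apoa1 in ENT was near the top of the scale.

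**Figure D2:**
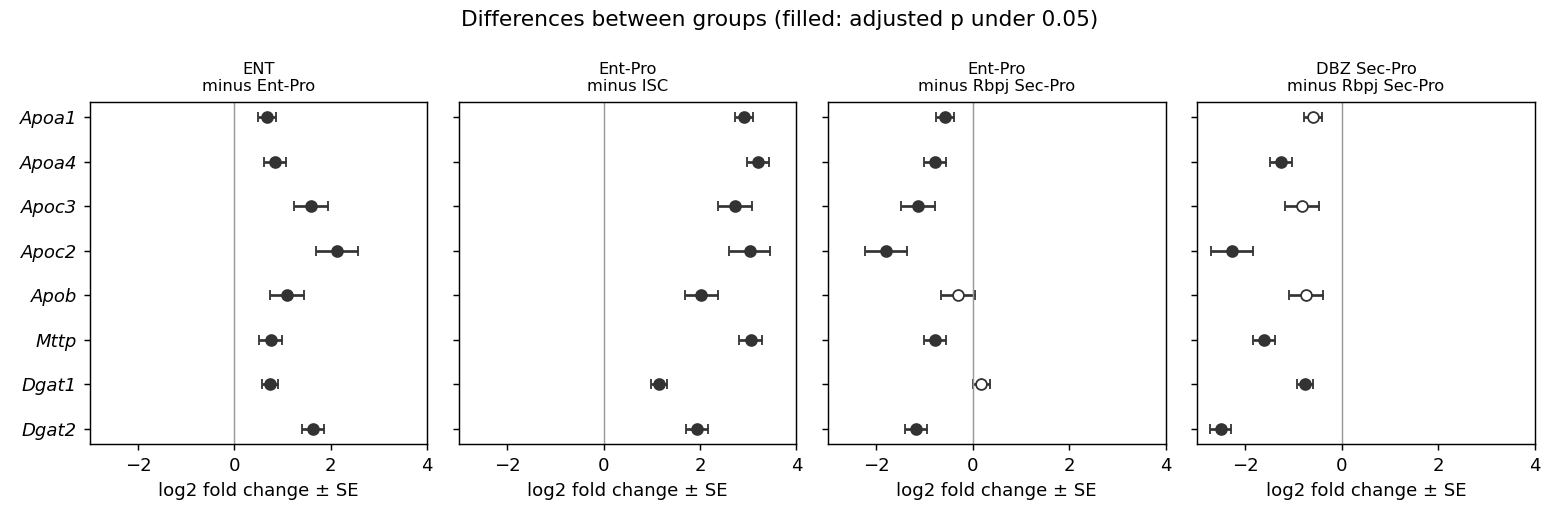
Log2 fold change (horizontal axis) of each of the 8 genes in 4 comparisons; points are limma estimates, bars ± SE (2 arrays a group), and filled points passed an adjusted p of 0.05. All 8 points lie right of 0 for ENT minus Ent-Pro and Ent-Pro minus ISC, and all 8 lie left of 0 for DBZ Sec-Pro minus Rbpj Sec-Pro, where 5 passed.

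Secretory progenitor preparations also carried these genes. DBZ Sec-Pro was higher than ISC in 6 of 8 genes (15.9% of all genes were called higher), among them Apoc3 (8.24-fold, adjusted p = 0.00028), Apoa1 (7.37-fold) and Apoa4 (6.56-fold, or 12.6-fold by its other probe set). Its exceptions were Dgat2 (log2 fold change 0.60, SE 0.23, adjusted p = 0.068) and Dgat1 (0.21, SE 0.17, adjusted p = 0.36). Apob lost its call without DBZ Sec-Pro replicate 1 or ISC replicate 2, and Dgat2 passed in 5 alternatives, among them the one without DBZ Sec-Pro replicate 2 and those with the mean or the dimmest of its probe sets. Rbpj Sec-Pro was higher than ISC in all 8 genes (17.7% of all genes were called higher), from 1.96-fold for Dgat1 to 28.5-fold for Apoc2 (log2 fold change 4.83, SE 0.43, adjusted p = 8.2e-05) with the probe sets used. The other Apoa4 probe set gave 34.9-fold. All 9 enterocyte markers were called higher in Rbpj Sec-Pro than in ISC, and 8 of 9 in DBZ Sec-Pro than in ISC. Of 5 leukocyte markers 4 were higher in each. Goblet markers were higher too, 7 of 7 in DBZ Sec-Pro and 6 of 7 in Rbpj Sec-Pro, and stem cell markers were lower, 6 of 7 in DBZ Sec-Pro and 7 of 7 in Rbpj Sec-Pro. Their part in these results was not tested.

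The secretory preparations differed from each other. All 8 genes read lower on the DBZ Sec-Pro arrays than on the Rbpj Sec-Pro arrays without overlap, as 59.8% of all genes did in one direction or the other, and 5 were called lower, where 7.08% of all genes were. Dgat2 was 5.72-fold lower in DBZ Sec-Pro (log2 fold change -2.52, SE 0.23, adjusted p = 0.00098), Apoc2 4.84-fold lower (-2.27, SE 0.43, adjusted p = 0.012) and Mttp 3.06-fold lower (-1.61, SE 0.23, adjusted p = 0.0053). Apoa4 was 2.39-fold and Dgat1 1.69-fold lower. Apoc3 (-0.83, adjusted p = 0.14), Apob (-0.74, adjusted p = 0.18) and Apoa1 (-0.60, adjusted p = 0.056) did not pass. Apoa1 passed in 4 alternatives, among them those with its dimmest probe set and without _x_at and _s_at probe sets.

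Dgat2 kept its call in every alternative, while 2 genes passed without DBZ Sec-Pro replicate 2, 3 without Rbpj Sec-Pro replicate 1 and 1, Dgat2, when those 4 arrays alone were fitted. DBZ replicate 1 read above replicate 2 in all 8 genes, by 0.38 to 1.28. Of the enterocyte markers 3 of 9 were lower in DBZ Sec-Pro, namely Krt20 (-1.09), the glucose transporter Slc5a1 (-1.03) and Fabp1 (-0.46). At an unadjusted p under 0.05, 7 of 9 enterocyte markers were lower (median -0.51), as were 7 of the 8 genes. The share of all genes at that unadjusted p was not counted. Of 7 goblet markers 2 were higher and 1 lower, and 2 of 9 enteroendocrine and 1 of 4 Paneth markers were higher. The mean of 5 leukocyte markers was 8.19 and 9.28 on the DBZ arrays and 9.95 and 7.70 on the Rbpj arrays. Their part in the difference was not tested.

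Enterocyte progenitors were set against each secretory preparation, 2 comparisons that share the Ent-Pro arrays. Ent-Pro was lower than Rbpj Sec-Pro in 6 of 8 genes, where 9.37% of all genes were called lower: Apoc2 3.48-fold (log2 fold change -1.80, SE 0.43, adjusted p = 0.019), Dgat2 2.26-fold (adjusted p = 0.0095), Apoc3 2.19-fold, Mttp 1.72-fold, Apoa4 1.71-fold and Apoa1 1.49-fold. Apob (-0.30) and Dgat1 (0.18) did not pass. These calls depended on single arrays: 0 passed in limma without Ent-Pro replicate 2, where 3 had an unadjusted p under 0.05, and 1 passed without Rbpj Sec-Pro replicate 1. Calls were also lost without Ent-Pro replicate 1 or Rbpj Sec-Pro replicate 2. Leaving out any ENT or ISC array lost calls too, though these arrays enter the comparison only through the shared estimate of spread. The count was 2 after centring the arrays and 1 in a fit of those 4 arrays. Of the enterocyte markers 4 of 9, and of the leukocyte markers 3 of 5, were lower in Ent-Pro too. Ent-Pro was also lower in 7 of 7 goblet markers (median -6.49), 4 of 4 Paneth, 8 of 9 enteroendocrine and 2 of 5 tuft cell markers, and higher in 5 of 5 proliferation markers. Their part in the result was not tested.

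Against DBZ Sec-Pro, Ent-Pro was higher in 3 of 8 genes and lower in 0 (9.77% of all genes were called higher and 8.84% lower): Dgat2 2.53-fold (log2 fold change 1.34, SE 0.23, adjusted p = 0.0044), Dgat1 1.92-fold (0.94, SE 0.17, adjusted p = 0.0056) and Mttp 1.78-fold (0.83, SE 0.23, adjusted p = 0.038). The 5 apolipoproteins, with log2 fold changes from -0.31 to 0.48, did not pass, and their arrays overlapped. Dgat2 passed in every alternative run and Dgat1 in all but the one without Ent-Pro replicate 1. Mttp lost its call in 9: after cyclic loess, in a fit of those 4 arrays, and without either ENT, Ent-Pro or ISC array or DBZ Sec-Pro replicate 2. Of the 9 enterocyte markers limma called 0 between these groups, and 1 had an unadjusted p under 0.05. Ent-Pro was lower in 7 of 7 goblet (median -7.08), 4 of 4 Paneth, 8 of 9 enteroendocrine and 4 of 5 tuft cell markers, and higher in 3 of 5 proliferation markers. Their part in the result was not tested.

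Between ENT and Rbpj Sec-Pro Dgat1 alone was called, 1.90-fold higher in ENT (log2 fold change 0.93, SE 0.17, adjusted p = 0.0037). Of all genes 21% were called higher. The other 7 ran from -0.03 for Mttp to 0.79 for Apob (adjusted p = 0.11), which does not show that they were equal. Arrays did not overlap in 5 of the 8, Apoa1, Apob, Apoc3, Dgat1 and Dgat2, each higher in ENT. The share of all genes without overlap is not given for this comparison. In these groups Apoa1 and Apoa4 read 0.11 to 0.49 below the array's highest value, which may limit their differences. After centring the arrays Apob passed as well. Against DBZ Sec-Pro, ENT was higher in all 8 genes (23.3% of all genes were called higher), from 1.64-fold for Apoa1 to 7.86-fold for Dgat2 (log2 fold change 2.98, SE 0.23, adjusted p = 3.0e-05). That count was 5 without ENT replicate 2 or without DBZ Sec-Pro replicate 2. ENT was lower than DBZ and Rbpj Sec-Pro in all 7 goblet markers (medians -6.84 and -6.50), all 4 Paneth and all 5 proliferation markers, and in 8 of 9 enteroendocrine markers. Of the 9 enterocyte markers 6 were higher in ENT than in DBZ Sec-Pro and 1 than in Rbpj Sec-Pro. Their part in these results was not tested.

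**Figure D3:**
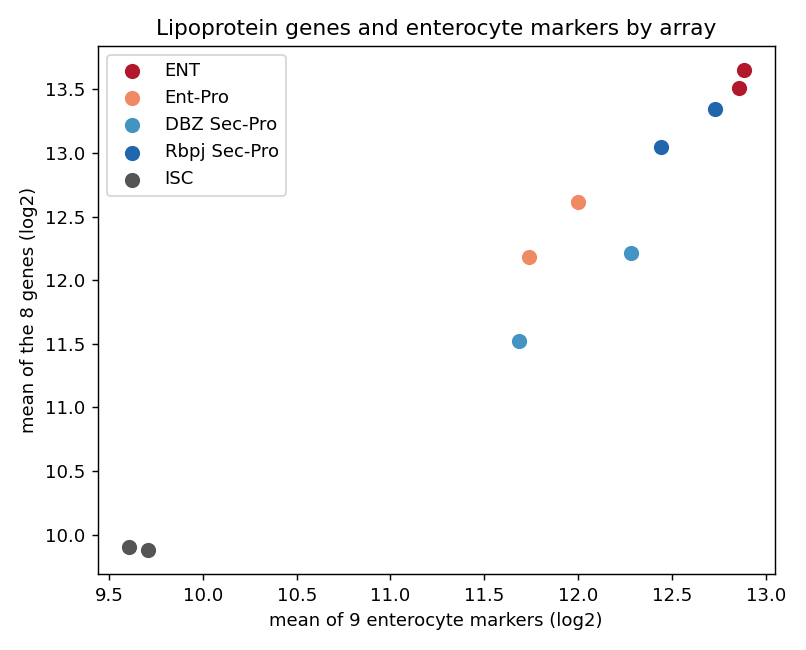
Mean of the 8 lipoprotein genes (vertical axis, log2) against the mean of 9 enterocyte markers (horizontal axis, log2), 1 point for each of the 10 arrays, coloured by group. ISC arrays lie at the lower left (9.88 and 9.91 for the 8 genes) and ENT arrays at the upper right (13.51 and 13.65), with Rbpj Sec-Pro next to ENT (13.34 and 13.04).

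Genes with several probe sets gave the same direction from each in the comparisons of ENT with Ent-Pro and with ISC, of DBZ with Rbpj Sec-Pro and of Ent-Pro with Rbpj Sec-Pro. Directions differed for Mttp in ENT against Rbpj Sec-Pro (-0.03 and 0.17) and for Apoa1 in Ent-Pro against DBZ Sec-Pro (-0.02 to 0.03). Apoa4 was the case where the size depended most on the choice: ENT minus ISC was 4.04 on the log2 scale for the brighter probe set, which was used and whose suffix (_x_at) marks probes that may also bind other transcripts, and 5.60 for the other. The 2 Mttp probe sets gave 3.80 and 4.22, the 2 of Dgat2 gave 3.58 and 3.82, and the 4 of Apoa1 gave 3.46 to 3.65. Apob, Apoc2, Apoc3 and Dgat1 had 1 probe set each. The Apoa1 probe set used also ends in _x_at, and that of Dgat1 in _s_at.

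Across the 10 arrays the 5 apolipoproteins and Mttp correlated pairwise with r from 0.92 to 0.99 (15 pairs), and pairs with Dgat1 or Dgat2 from 0.73 to 0.94 (13 pairs). The pairs share arrays, and the ISC arrays stand apart from the rest. Without them, over 8 arrays, these ranges were 0.71 to 0.98 and 0.64 to 0.97. The genes most like the mean profile of the 8, among 2148 others with a range of at least 2 (log2), were Acsl5, which activates long-chain fatty acids (r = 0.996), the cytochrome Cyp3a13 (0.994), the alanine aminotransferase Gpt (0.993) and Sec23a, a subunit of the COPII vesicle coat (0.993). Next came Rbp2, the retinol-binding protein of enterocytes, the ectoenzyme Enpp3, the glucose transporter Slc2a2 and Ndfip2 (0.990 to 0.992). Without the ISC arrays their r ran from 0.962 to 0.999.

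Other genes of the pathway were read from lists, beside the shares of all genes called. These were 18.5% higher and 20.2% lower in ENT against Ent-Pro, and 12.1% higher and 13.5% lower in Ent-Pro against ISC. Of 12 measured genes of triglyceride synthesis, 7 were higher and 2 lower in ENT than in Ent-Pro (median 0.80), and 5 higher and 2 lower in Ent-Pro than in ISC. Mogat2, the acyltransferase that starts from monoacylglycerol, read 12.50 and 12.66 in ENT, 10.99 and 10.56 in Ent-Pro and 8.004 and 8.002 in ISC. It was called at both steps, with log2 fold changes of 1.81 and 2.77. Acsl5 was also called at both (0.71 and 1.93), and Lpin3, a phosphatidate phosphatase, in the villus (1.57). Gpam, the mitochondrial enzyme of the glycerol phosphate route, was lower in ENT than in Ent-Pro (-1.56, adjusted p = 0.00051).

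Of 22 genes of particle assembly and export, 14 were higher and 0 lower in ENT than in Ent-Pro (median 0.92), and 13 higher and 0 lower in Ent-Pro than in ISC (median 0.90). At an unadjusted p under 0.05 limma had 1 lower in ENT than in Ent-Pro and 0 lower in Ent-Pro than in ISC. The coat subunits Sec24d (1.69 in the villus and 3.78 in Ent-Pro over ISC) and Sec23a (1.07 and 2.62) had their larger changes below the villus. Cidec, a protein of lipid droplets, read 10.09 and 9.81 in ENT, 6.73 and 6.73 in Ent-Pro and 5.20 and 4.85 in ISC. Mia2, a receptor for bulky cargo leaving the endoplasmic reticulum, was 7.01 and 7.85 in ENT, 5.40 and 5.31 in Ent-Pro and 5.31 and 5.40 in ISC. It was called in the villus (2.07, adjusted p = 0.00021) and not in Ent-Pro against ISC. Its readings there lay below the arrays' medians (6.83 to 6.98) and cannot show that Mia2 was level. Cidec was also lower in DBZ Sec-Pro than in Rbpj Sec-Pro (-2.31, adjusted p = 0.0022), one of 8 of this list that were lower there against 1 higher, where 7.08% of all genes were lower and 9.34% higher.

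Of 11 other apolipoproteins measured, 1 was called higher in ENT than in Ent-Pro, Apoa2 of high-density lipoprotein (0.65, adjusted p = 0.0014). In Ent-Pro against ISC limma called 0 higher (1 at an unadjusted p under 0.05), and Apoe, which many cells make for cholesterol transport, was lower (5.17 and 5.26 in Ent-Pro, against 6.15 and 6.62 in ISC; -1.17, adjusted p = 0.0029). The medians of this list were 0.07 and 0.06. Its mean lay between 5.82 and 6.09 on every array, below the arrays' medians (6.83 to 6.98). Genes this dim may lie near background, which was not tested, so these medians do not show that they were level.

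Of 8 genes of lipoprotein uptake and clearance, 2 were higher in ENT than in Ent-Pro: Scarb1, the receptor for high-density lipoprotein (9.07 and 9.54 in ENT, against 6.30 and 5.61 in Ent-Pro; 3.35), and Angptl4, an inhibitor of lipoprotein lipase (1.76). Scarb1 was lower in Ent-Pro than in ISC (-1.15), and so was the lipoprotein receptor Vldlr (-1.88). The endocytic receptor Cubn was higher (2.83, adjusted p = 0.019), with Ent-Pro arrays far apart (8.83 and 6.58, against 5.30 and 4.45 in ISC). Of 5 genes of sterol export and esterification, 3 were higher in ENT than in Ent-Pro, the lysosomal lipase Lipa (2.61) and the sterol transporter subunits Abcg5 (1.88) and Abcg8 (1.42). Lipa (1.95) and Abcg5 (1.06) were also higher in Ent-Pro than in ISC.

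Of 25 measured factors listed as possible regulators of apolipoprotein genes, 10 were higher and 5 lower in ENT than in Ent-Pro (median 0.17). In Ent-Pro against ISC 4 were higher and 5 lower (median -0.09). The 5 lower of 25 in ENT against Ent-Pro are a share near that of all genes (20.2%). Creb3l3, a membrane-bound factor known to drive apolipoprotein genes in mouse liver, read 12.23 and 12.14 in ENT, 10.41 and 10.25 in Ent-Pro, 9.86 and 9.37 in DBZ Sec-Pro, 11.56 and 10.84 in Rbpj Sec-Pro, with 7.83 and 8.44 in ISC. Its means ordered the groups as those of Apoa1, Apoa4, Apob, Apoc2 and Dgat2 did. So did the means of the 8 genes most like the mean profile, among them Gpt and Slc2a2, and the share over all genes was not counted. The step from Ent-Pro to DBZ Sec-Pro was not called for Creb3l3 (0.72, adjusted p = 0.11). A part of Creb3l3 in the result was not tested. Prdm1, a repressor that holds back villus maturation before weaning, and the coactivator Ppargc1a were higher in ENT than in Ent-Pro (2.12 and 2.07), and Foxa3 was lower there (-2.11) and lower in Ent-Pro than in ISC (-0.97).

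**Figure D4:**
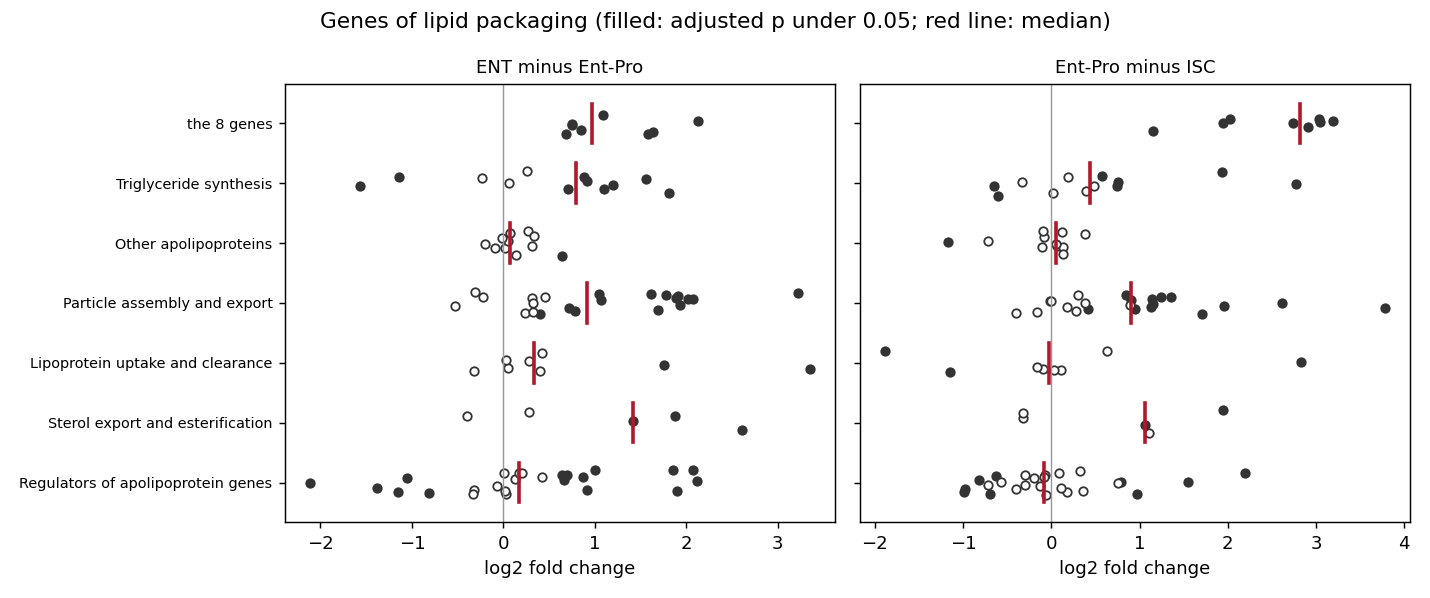
Log2 fold change (horizontal axis) of each measured gene of 7 lists, for ENT minus Ent-Pro on the left and Ent-Pro minus ISC on the right; points are genes, filled where the adjusted p was under 0.05, and red lines are list medians. The medians of the 8 genes are 0.97 and 2.82, those of the other apolipoproteins 0.07 and 0.06. The other apolipoproteins read low, with a list mean of 5.82 to 6.09 on every array.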

How the data were processed

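The authors deposited log2 expression values for 22690 probe sets on 10 arrays. RMA and MAS5 are named in the submitters' processing notes with no role or version. Medians of the 10 arrays ran from 6.83 to 6.98 and no further scaling was applied to these deposited log2 values. How far differences can be resolved is limited by 2 arrays a group. Gene names came from the platform annotation, with symbols checked by Entrez identifier against RefSeq (20364 of 20393 single-gene probe sets matched, with 0 symbols changed). Left out were 691 probe sets with more than 1 symbol, 1606 with no symbol here and 64 controls, and the probe set with the highest mean stood for each of 12393 genes.

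One model with 5 group means was fitted to all genes and arrays in limma 3.58.1 under R 4.3.3 (lmFit and eBayes, 5 residual and 3.75 prior degrees of freedom), with 10 pairwise contrasts and an F-test, and p-values adjusted by Benjamini-Hochberg. The code was tested on simulated data. No gene set test was run. The rule named all 8 genes, up to 4 called genes of each pathway list with the largest change in ENT against Ent-Pro or Ent-Pro against ISC (2 with the smallest p where fewer than 2 were called), and the 8 genes most like the mean profile; a few genes outside it were named after their values were seen. Members, lists and tests were chosen with earlier results of these data known. Alternatives covered scaling, a filter on dim genes, the probe set, the variance model, array weights, the replicate number as a block, the arrays fitted and leaving out each array; leaving out _x_at and _s_at probe sets was added after the data were seen.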

Additional observations from a re-analysis of the deposited data

Results flagged for a closer look

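In 5 genes the difference from stem cells was not the same in the secretory preparations, tested as DBZ Sec-Pro minus Rbpj Sec-Pro because the ISC level drops out. Of these, Dgat2 and Dgat1 were not called higher in DBZ Sec-Pro than in ISC. Treatment, genotype and preparation cannot be told apart here. The difference was -2.52 (log2) for Dgat2 (adjusted p = 0.00098), -2.27 for Apoc2 (adjusted p = 0.012), -1.61 for Mttp (adjusted p = 0.0053), -1.26 for Apoa4 (adjusted p = 0.011) and -0.76 for Dgat1 (adjusted p = 0.021). In each of them all arrays of DBZ Sec-Pro read below all arrays of Rbpj Sec-Pro, in data where 59.8% of all genes did not overlap between these groups in one direction or the other and 7.08% were called lower. With those 4 arrays alone Dgat2 passed and the other 4 did not. Groups of 2 arrays allow no test for a single array that stands apart.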

How the results depend on the processing

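With 2 arrays a group, many calls changed when a single array was left out. An array outside a comparison enters it only through the shared estimate of spread. Leaving out 1 array at a time gave 3 to 8 called genes for ENT against Ent-Pro (8 with all arrays), 5 to 8 for ENT against DBZ Sec-Pro (8), 1 to 4 for Ent-Pro against DBZ Sec-Pro (3), 0 to 6 for Ent-Pro against Rbpj Sec-Pro (6), 2 to 5 for DBZ against Rbpj Sec-Pro (5) and 5 to 7 for DBZ Sec-Pro against ISC (6). It gave 1 for ENT against Rbpj Sec-Pro and 8 for ENT, Ent-Pro and Rbpj Sec-Pro, each against ISC, as with all arrays. Where an array was left out, the lone array of its group is assumed to vary like the other groups. Ent-Pro against Rbpj Sec-Pro gave 2 with arrays centred on their medians, 2 with array weights and 1 with those 4 arrays alone. DBZ against Rbpj Sec-Pro gave 1 with those 4 arrays alone. ENT against Rbpj Sec-Pro gave 2 after centring and 0 without _x_at and _s_at probe sets, which removes Dgat1 (0 of the other 7 at an unadjusted p under 0.05 in limma). The causes were not tested. Of the single-gene values under the other alternatives, 753 kept direction and call, 24 lost a call, 9 gained one and 4 turned sign. Those were Mttp in ENT against Rbpj Sec-Pro (0.15 after centring, 0.069 with the mean and 0.17 with the dimmest of its probe sets) and Apoa1 in Ent-Pro against DBZ Sec-Pro (-0.11 after cyclic loess), neither called. Leaving out arrays turned uncalled values in 7 results. They ran from -0.21 to 0.14 for Mttp, and from -0.024 to 0.68 for Apoc2, in ENT against Rbpj Sec-Pro. In Ent-Pro against DBZ Sec-Pro they ran from -0.21 to 0.26 for Apoa1, from -0.88 to 0.26 for Apoc3 and from -0.16 to 1.11 for Apoc2. For Apob in Ent-Pro against Rbpj Sec-Pro they ran from -0.63 to 0.025, and for Dgat1 in DBZ Sec-Pro against ISC from -0.0055 to 0.43. Over all genes, calls for DBZ against Rbpj Sec-Pro numbered 2036, but as few as 97 with those 4 arrays alone and 363 without DBZ replicate 2. For Ent-Pro against Rbpj Sec-Pro they numbered 3255, but as few as 705 with those 4 arrays alone and 824 without Ent-Pro replicate 2. The lowest counts of the other comparisons that moved past 1.5 times were 2208 with those 4 arrays alone and 2735 without ENT replicate 1 for ENT against Rbpj Sec-Pro (4437), 1045 without Ent-Pro replicate 1 for Ent-Pro against DBZ Sec-Pro (2307), 1704 without Ent-Pro replicate 2 for Ent-Pro against ISC (3165) and 3859 among genes above the median level for Rbpj Sec-Pro against ISC (5832). Centring moved the median of all genes in ENT against Ent-Pro to 0.15, against 0.02. The share of calls that were higher then became 58.3% (47.8% uncentred), and likewise 69.1% (51.6%) for ENT against DBZ Sec-Pro, 76.6% (58.7%) for ENT against Rbpj Sec-Pro, 62.9% (45.4%) for ENT against ISC, 63.3% (52.5%) for Ent-Pro against DBZ Sec-Pro and 59.9% (47.3%) for Ent-Pro against ISC. Cyclic loess gave 46.3% (64.3%) for Ent-Pro against Rbpj Sec-Pro, 54.7% (44.0%) for DBZ Sec-Pro and 52.1% (37.6%) for Rbpj Sec-Pro against ISC. Whether the replicate numbers pair the arrays is not given by the labels. Deviations of same-numbered arrays correlated above 0.1 in 1 of 10 pairs of groups (r from -0.19 to 0.17), which cannot show that no batch was shared. With the replicate number as a block, the calls were 6 for DBZ against Rbpj Sec-Pro, 7 for DBZ Sec-Pro against ISC and otherwise equal in number to those without it.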

Other observations

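The secretory preparations held unequal shares of the log2 difference between ENT and ISC, given here as descriptions with no test. DBZ Sec-Pro held 80.2% of it for Apoa1 and 70.4% for Apoc3, 67.1% for Apoa4, 58.4% for Mttp, 51.0% for Apob and 49.6% for Apoc2, but 16.8% for Dgat2 and 11.3% for Dgat1. Apoa1 in ENT and Rbpj Sec-Pro lay 0.11 to 0.21 below the array's highest value, which limits what its shares can show. Rbpj Sec-Pro held between 87.1% and 100.9% for 6 genes, with 74.7% for Apob and 51.1% for Dgat1. In both preparations the lowest share was that of Dgat1.

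Of 22 genes of particle assembly and export, 1 was higher and 7 lower in Ent-Pro than in DBZ Sec-Pro, where 9.77% of all genes were higher and 8.84% lower. The list's median was 0.10, against 0.08 over all genes. Of the 8 genes 3 were higher and 0 lower there, also at an unadjusted p under 0.05 in limma, and the difference between these lists was not tested. Sec24d was among the 7, with 10.40 and 10.48 in Ent-Pro, against 11.14 and 11.14 in DBZ Sec-Pro (-0.70, adjusted p = 0.014).

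The spread within a group was not even. Over the 8 genes the median SD of the 2 arrays was 0.10 in ENT, 0.30 in Ent-Pro, 0.49 in DBZ Sec-Pro, 0.16 in Rbpj Sec-Pro and 0.15 in ISC. These SDs do not describe the arrays as a whole. Over all genes limma's array weights, which are lower for more variable arrays, were lowest in Rbpj Sec-Pro (0.53, against 1.00 to 1.80 elsewhere). Replicate 1 read above replicate 2 in 8 of 8 genes in DBZ Sec-Pro and in Rbpj Sec-Pro, in 7 of 8 in Ent-Pro, in 4 of 8 in ENT and in 3 of 8 in ISC.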
